A study of Drosophila melanogaster with 5 samples.

Results

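Rab proteins are small GTPases that mark the membranes of the secretory and endocytic routes. In the GTP-bound form each recruits effectors such as tethers, motors and golgins to its own compartment, guanine nucleotide exchange factors (GEFs) switch it on and GTPase-activating proteins (GAPs) switch it off. The larval salivary gland of the fly makes, stores and releases glue protein in secretory granules, and Rab proteins take part in the growth of those granules and in the breakdown of the glue that is left over.

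The family was taken as the probe sets whose only annotated gene symbol is Rab followed by a digit, or by X and a digit, and which encode a GTPase. This gave 23 probe sets for 22 genes, out of 18769 non-control probe sets on the array. Rab26 has 2 of them, and each other gene has 1. The symbols Rab3-GEF, Rab3GAP1 and Rab3-GAP fit the same spelling but name regulators and were counted with the regulators. Of 33 Rab GTPase genes in the RefSeq gene table, Rab1, Rab4, Rab5, Rab6, Rab7, Rab8 and Rab11 were not analysed here, and 4 genes (Rab9Fa, Rab9D, Rab9E and Rab9Db) share a single probe set that cannot separate them.

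RNA of dissected Drosophila melanogaster salivary glands was hybridised to 5 one-colour Affymetrix arrays. In the first group, 3 arrays hold glands of animals with P{hs-Fkh111}, which puts the gene fork head (fkh), a transcription factor of the gland, under a heat shock promoter that is not limited to the gland. In the second group, 2 arrays hold glands of the strain w1118, which is white-eyed and serves as the control, which the titles write as w1118(3). All animals of both groups were kept at 25 °C, given a heat shock of 30 min at 37 °C when 9.5 h had passed since puparium formation, and their glands were taken at 14 h. The submitters call the arrays of a group biological replicates. The title of the series concerns Fork head-responsive genes, and the comparison of the 2 groups addresses this for the Rab family.

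The signal of fkh itself went against its label. It was 41.5, 47.0 and 58.3 in the arrays labelled fkh-expressing, against 129.6 and 120.3 in the w1118 arrays (log2 fold -1.13 ± 0.17 SE, limma adjusted p = 0.0026). Whether this probe set falls within the transgenic copy could not be settled here, so every direction below rests on the labels. Further measures differed between the same arrays. The 3' to 5' signal ratio of actin, which rises as RNA or labelling quality falls, reached 4.94, 4.30 and 3.37 in the fkh-labelled arrays, against 2.47 and 2.54 in those of w1118. The ratio of 18S rRNA was 4.49, 2.41 and 4.51 against 2.32 and 1.20, and that of eIF-4a 2.35, 1.81 and 1.68 against 1.53 and 1.55. That of GAPDH overlapped, at 1.56, 1.14 and 1.11 against 1.16 and 1.14. The summed intensity of 8 fat body markers was 10648 to 11488 in the fkh-labelled arrays against 17844 to 19200.5 in the w1118 arrays, that of 11 haemocyte markers 945 to 1124 against 1771 to 1869.8, that of 9 neuronal markers 385 to 459 against 637 to 818, and that of 6 tracheal markers 4029 to 4425 against 6809 to 7853. Of the genes tested, 3 of 7 fell in the fat body list, 3 of 8 in the haemocyte list, 2 of 5 in the neuronal list and 4 of 6 in the tracheal list, beside 19.3% of all genes tested. The 6 tracheal genes were named after their values were seen. Gasp, serp, verm and obst-A were bright and fell. The dim btl read 66.0, 43.8 and 54.0 against 41.4 and 22.8, above both w1118 arrays. The dim uif read 31.4, 42.5 and 63.1 against 65.8 and 115.4, below both. Neither btl nor uif passed the threshold. The haemocyte sum moved mostly with the phagocytosis receptor NimC4, picked after its values were seen, which read 192, 226 and 249.6 in the fkh-labelled arrays, against 953 and 872 in the w1118 arrays, and the median log2 fold of that list was -0.063. The sum of 9 muscle markers overlapped between the groups (856 to 1013 against 889.7 to 968), and that of 17 salivary gland genes was 117950 to 118925 against 74594 to 79132. In that list 9 genes rose, beside 21.5% of all genes tested, and 2 fell, fkh and, named after its values were seen, the glue gene Sgs7. No marker was at 0 in all 5 arrays. The part of these differences in the Rab results was not tested.

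Rab genes moved in both directions, by up to about 2.5-fold, and about as often as probe sets in general. Of the 23 probe sets, 18 passed the filter on dim signals (mean over all arrays above the 40th percentile). Of these 18, 2 rose (Rab30 and Rab32) and 5 fell (Rab35, Rab39, Rab40, Rab23 and Rab26), while 11 did not pass the threshold. A gene is said to rise or fall, throughout, where it was higher or lower in the fkh-labelled arrays at a limma adjusted p under 0.05, adjusted over the 11261 probe sets tested. The background is high: 39.4% of all probe sets tested were called, 20.7% upward and 18.7% downward. The Rab count of 7 in 18 is close to that share. Rab23 and Rab26 passed the filter only through the w1118 arrays, where they are high, so their falls add no support, and without them 2 rose and 3 fell of 16. The median log2 fold of the Rab probe sets tested was -0.035, against -0.0051 for all probe sets tested, and the median size of the fold regardless of sign was 0.40 against 0.47. A fold here is on the log2(intensity + 16) scale, which understates changes of dim probe sets. In whole glands, fewer cells of a type and less RNA per cell cannot be told apart.

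**Figure D1:**
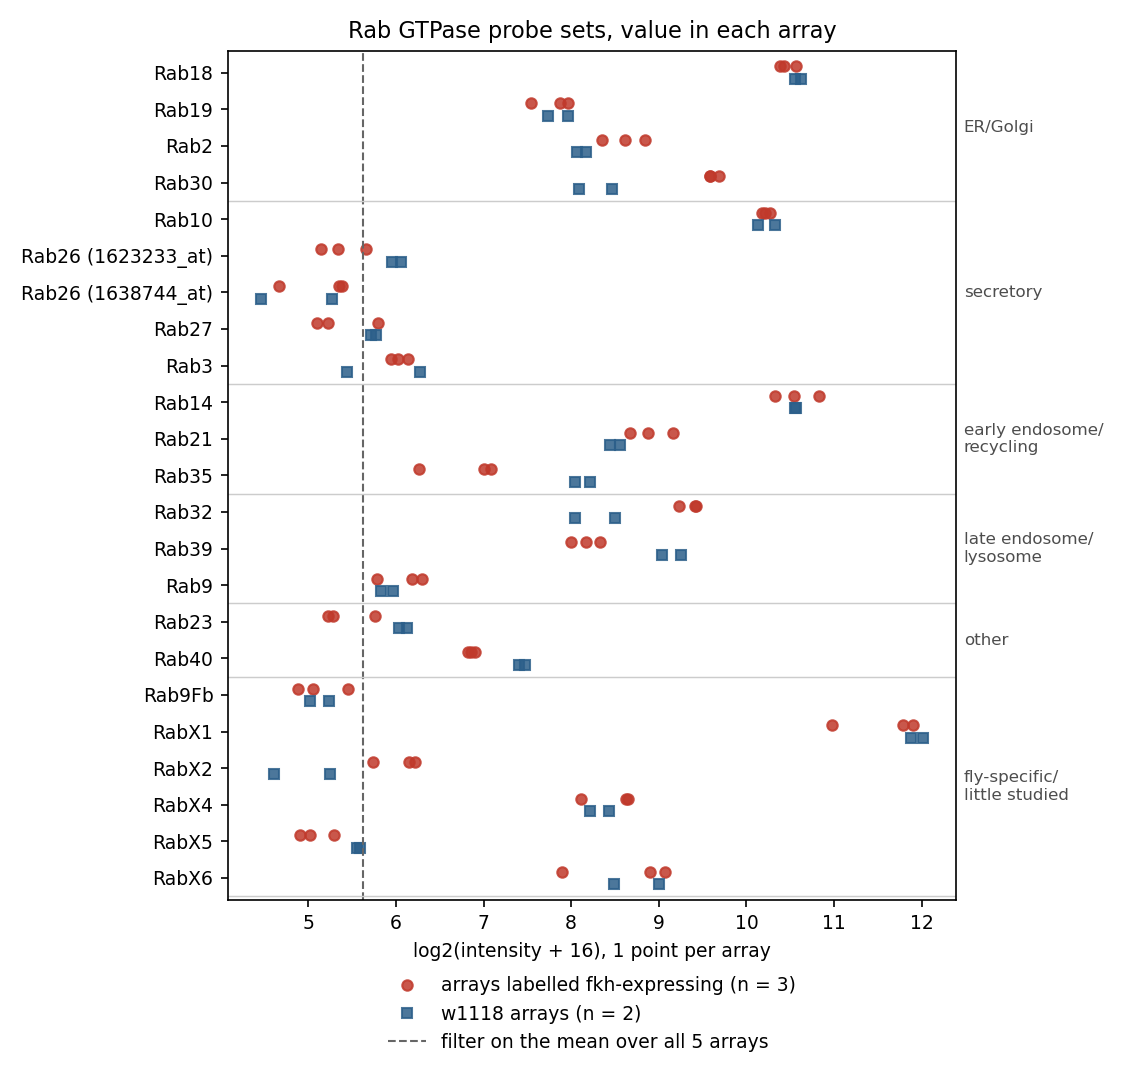
Value of each of the 23 Rab probe sets in each array, as log2(intensity + 16) on the horizontal axis, with genes grouped by role. Circles are the 3 arrays labelled fkh-expressing, squares the 2 w1118 arrays, and the dashed line is the filter, which applies to the mean over all 5 arrays. The groups lie apart for Rab30, Rab32, Rab35, Rab39 and Rab40 and overlap for Rab10, Rab14 and Rab19.

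The value of each array is shown in the plot of all 23 probe sets. Within that plot, levels are compared along a row only, because signals of different probe sets are not on one scale. Among the 18 tested, the fkh-labelled arrays lay all on one side of both w1118 arrays for 9, 4 above and 5 below. The same held for 63.7% of all probe sets tested, 31.6% above and 32.1% below.

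Among the Rab proteins of the endoplasmic reticulum and Golgi, Rab30 rose and the other 3 did not pass the threshold. Rab30, a Golgi Rab, had intensities of 754, 750.4 and 807 in the fkh-labelled arrays, against 256 and 338 in the w1118 arrays. Every fkh-labelled array was more than 2-fold above either w1118 array. The means were 770.5 ± 31.3 (SD, n = 3) and 297 ± 58.5 (SD, n = 2), a log2 fold of 1.34 ± 0.17 (SE; limma adjusted p = 0.0013). The adjusted p stayed between 0.0038 and 0.012 whichever array was left out.

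Rab2, which acts at the Golgi and in the fusion of autophagosomes and endosomes with lysosomes, had 444, 375 and 311 in the fkh-labelled arrays, against 271 and 251 in the w1118 arrays. The 3 fkh-labelled arrays were above both w1118 arrays, but the log2 fold of 0.49 (95% interval 0.04 to 0.94) missed the threshold (limma adjusted p = 0.081). Without fkh-labelled array 3 it was 0.61 and passed (limma adjusted p = 0.026). Rab18, a Rab of the endoplasmic reticulum and lipid droplets, lay between 1316 and 1497 in the fkh-labelled arrays and at 1489 and 1560.2 in the w1118 arrays. Its log2 fold was -0.13 (95% interval -0.48 to 0.22). Rab19, found at the Golgi in flies, ranged from 169.6 to 234 in the fkh-labelled arrays against 234 and 197, with a log2 fold of -0.06 (95% interval -0.51 to 0.39). For Rab18 and Rab19 the groups overlapped.

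Of the Rab genes with roles in secretory granules and exocytosis, only Rab26 passed the threshold, at a dim probe set. Rab26 is linked to secretory granules and synaptic vesicles in mammals. At the brighter of its probe sets the intensities were 34.5, 19.3 and 24.5 in the fkh-labelled arrays, against 50.5 and 46.2 in the w1118 arrays. All 3 arrays were below both w1118 arrays, and the log2 fold was -0.63 ± 0.19 (SE; limma adjusted p = 0.041). This probe set passed the filter only through the w1118 arrays, and leaving out fkh-labelled array 2 raised the adjusted p to 0.11, and leaving out fkh-labelled array 3 to 0.067. Without either w1118 array it was under the filter. Of 5 neuronal markers tested, 2 fell in the same arrays, beside 19.3% of all genes tested, and a link to Rab26 was not tested. The other Rab26 probe set was not tested: it read 9.35 to 25.6 in the fkh-labelled arrays, against 22.7 and 6.0 in the w1118 arrays, so the groups overlapped.

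Rab10, which directs polarised secretion of basement membrane in fly epithelia, was nearly level between the groups. It read 1214, 1144 and 1171 in the fkh-labelled arrays, against 1105 and 1271 in the w1118 arrays, with a log2 fold of -0.011 (95% interval -0.37 to 0.35). The interval leaves room for a change of up to about 0.37 on the log2 scale either way. Rab3, the Rab of synaptic vesicle release, read 45.8 to 54.5 against 27.5 and 61.2 (log2 fold 0.18, 95% interval -0.43 to 0.79). Rab27, which acts in regulated secretion, was under the filter at 39.3, 18.4 and 21.4 in the fkh-labelled arrays, against 36.6 and 38.5 in the w1118 arrays.

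Rab35 had the largest fall of the Rab probe sets tested. Rab35 returns membrane and receptors from endosomes to the cell surface and shapes cortical actin. It read 119.5, 112.8 and 61.1 in the fkh-labelled arrays, against 282 and 249 in the w1118 arrays. All 3 were far below either w1118 array, and array 3 was the lowest. The means were 97.8 ± 32.0 (SD, n = 3) and 265 ± 23.5 (SD, n = 2), a log2 fold of -1.35 ± 0.27 (SE; limma adjusted p = 0.0082). Without w1118 array 1 the fold was -1.26 and missed the threshold (limma adjusted p = 0.059).

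The other early endosomal and recycling Rab genes did not pass the threshold. Rab21, an early endosomal Rab, read 559, 453 and 393 in the fkh-labelled arrays, against 361 and 333 in the w1118 arrays. Its 3 arrays were above both w1118 arrays, with a log2 fold of 0.40 (95% interval -0.05 to 0.85, limma adjusted p = 0.14). Rab14, which acts between endosomes and the Golgi, read 1471, 1799.5 and 1268 against 1495 and 1488, and the fkh-labelled arrays lay on both sides of the w1118 arrays (log2 fold 0.0053, 95% interval -0.44 to 0.45).

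The late endosomal and lysosomal Rab genes were split: Rab32 rose, Rab39 fell and Rab9 did not pass the threshold. Rab32, known in flies as lightoid, is needed to make lysosome-related organelles such as the pigment granules of the eye. It read 664, 671 and 585 in the fkh-labelled arrays, against 249 and 345 in the w1118 arrays, so the groups were well apart. The means were 640.1 ± 47.9 (SD, n = 3) and 297 ± 68.3 (SD, n = 2), a log2 fold of 1.08 ± 0.19 (SE; limma adjusted p = 0.0045). It was called whichever array was left out, with adjusted p between 0.0075 and 0.034.

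Rab39, a Rab of late endosomes and lysosomes, read 306, 272 and 239 in the fkh-labelled arrays, against 592 and 509 in the w1118 arrays. All fkh-labelled arrays were well below both w1118 arrays. The means were 272 ± 33.4 (SD, n = 3) and 551 ± 58.9 (SD, n = 2), a log2 fold of -0.98 ± 0.17 (SE; limma adjusted p = 0.0048). It too was called with each array left out, with adjusted p between 0.0084 and 0.041. Rab9, which acts in transport from late endosomes to the Golgi, was dim and overlapped, at 39.0 to 62.4 in the fkh-labelled arrays, against 46.5 and 41.0 in the w1118 arrays (log2 fold 0.19, 95% interval -0.28 to 0.66).

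Rab40 and Rab23, which stand apart from the main trafficking routes, both fell. Rab40, which in vertebrates is part of a ubiquitin ligase, read 103, 97.2 and 99.8 in the fkh-labelled arrays, against 153 and 161 in the w1118 arrays. The arrays of each group were close to each other, and the log2 fold was -0.58 ± 0.14 (SE; limma adjusted p = 0.018). The fold ranged only from -0.61 to -0.54 with an array left out, while the adjusted p became 0.055 and 0.065 when fkh-labelled array 1 or 2 was dropped, and 0.073 and 0.094 when w1118 array 1 or 2 was. Rab23, which acts in planar cell polarity in the fly wing, read 22.8, 21.3 and 38.0 against 54.0 and 49.3 (log2 fold -0.66 ± 0.20 SE, limma adjusted p = 0.042). Like Rab26, it passed the filter only through the w1118 arrays. Its adjusted p became 0.12 when fkh-labelled array 1 or 2 was dropped, and it was under the filter without either w1118 array.

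**Figure D2:**
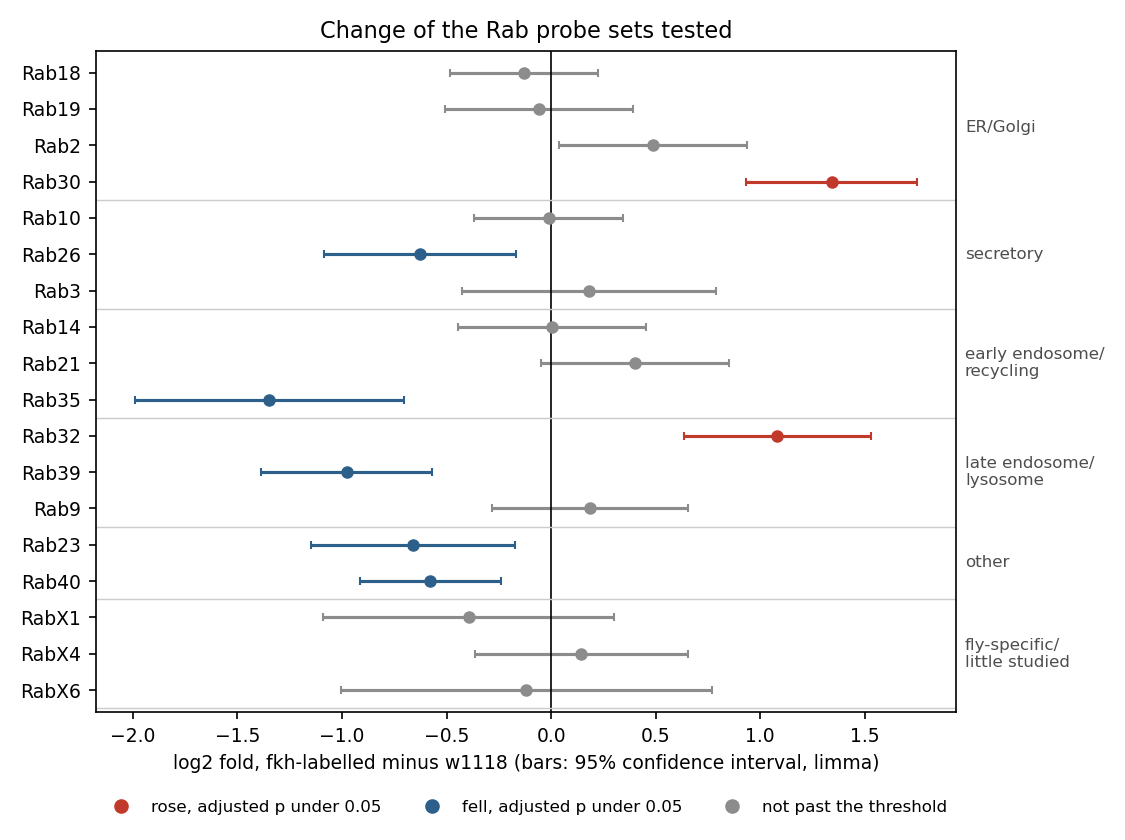
Log2 fold of the fkh-labelled over the w1118 arrays for the 18 Rab probe sets tested, with 95% confidence intervals from limma. Red points rose and blue points fell past the threshold. Rab30 at 1.34 and Rab35 at -1.35 mark the ends of the range, and the intervals of RabX1 and RabX6 are the widest among those not called.

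The Rab genes of flies with no settled role gave no call: of 3 tested, 0 passed in limma, and 0 at an unadjusted p under 0.05. Of all probe sets tested 39.4% were called, and 3 genes are too few to set against that share. RabX1, also known as chrowded, was bright, at 3513, 3807 and 1997 in the fkh-labelled arrays, against 4133 and 3743 in the w1118 arrays. Its fkh-labelled array 3 was far below the other 2, and the log2 fold was -0.39 (95% interval -1.09 to 0.30). RabX6 showed the same order, at 463, 523 and 222 against 496 and 343 (log2 fold -0.12, 95% interval -1.01 to 0.77). RabX4, expressed in neurons, read 379, 386 and 261 against 280.1 and 328 (log2 fold 0.14, 95% interval -0.37 to 0.65). For RabX1, RabX4 and RabX6 the groups overlapped.

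The remaining members were dim. RabX2, under the filter and so not among the calls, read 37.4, 58.4 and 55.2 in the fkh-labelled arrays, against 8.3 and 22.03 in the w1118 arrays. All its fkh-labelled arrays were above both w1118 arrays, and with no filter it passed the threshold (log2 fold 1.11 ± 0.26 SE, limma adjusted p = 0.019). RabX5 read 16.4, 23.1 and 14.0 against 32.1 and 30.9, below both w1118 arrays, and did not pass with no filter (limma adjusted p = 0.11). Rab9Fb read 13.4 to 27.9 against 21.8 and 16.4. The probe set shared by Rab9Fa, Rab9D, Rab9E and Rab9Db, which is no member, read 17.9, 9.1 and 7.6 against 34.9 and 25.8. The deposited values carry no detection call, so it is not known which of these signals stand above background.

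The fkh-labelled arrays differed among themselves for the Rab genes. Array 3 was the lowest of the 3 for 11 of the 18 Rab probe sets tested, array 2 for 6 and array 1 for 1. Of all 11261 probe sets tested, array 3 was the lowest for 5005 (44.4%), array 2 for 3767 and array 1 for 2489 (22.1%). Over the Rab probe sets tested, the log2 values of fkh-labelled arrays 1 and 2 differed with a standard deviation of 0.18, those of arrays 1 and 3 with 0.37 and those of arrays 2 and 3 with 0.43. The w1118 arrays differed with 0.31, and arrays of different groups with 0.60 to 0.85. Over all 18769 non-control probe sets each of these values was larger, but that set includes the dim probe sets under the filter. The values were 0.35 for fkh-labelled arrays 1 and 2 and 0.46 and 0.47 for array 3 with array 1 or 2. They were 0.43 for the w1118 arrays and 0.98 to 1.02 between groups. Among probe sets tested, the median SD of log2 values over the fkh-labelled arrays was 0.25 for the Rab family and 0.20 for all. Over the w1118 arrays it was 0.11 and 0.14.

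In the 5 fits that each drop 1 array, Rab30, Rab32 and Rab39 were called every time, Rab35 in 4 and Rab40 in 1, and Rab23 and Rab26 in 1 of the 3 fits that tested them. A fit without a w1118 array leaves 1 array in that group, which is assumed to vary like the fkh-labelled arrays. In the 3 fits that keep 2 arrays in each group, Rab30, Rab32, Rab35 and Rab39 were called in all 3, and Rab40, Rab23 and Rab26 in 1. Dropping fkh-labelled array 1, 2 or 3 left 3, 2 and 4 Rab probe sets that fell. In the same fits 30%, 30.3% and 43.4% of all probe sets tested were called, against 39.4% with all 5 arrays. Arrays 1 and 2 of the fkh-labelled group had the highest actin ratios, although array 3 had the highest 18S ratio. A fit of array 3 alone against both w1118 arrays takes its spread between samples from the w1118 arrays only and assumes that the lone array varies like them. In it 1 rose (Rab30, log2 fold 1.41, limma adjusted p = 0.025) and 3 fell. Those 3 were Rab35, Rab39 and RabX1. The log2 fold of Rab39 was then -1.15 (limma adjusted p = 0.028), while Rab32 was at 0.96 and missed the threshold (limma adjusted p = 0.071). In the same fit 24.3% of all probe sets tested were called.

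**Figure D3:**
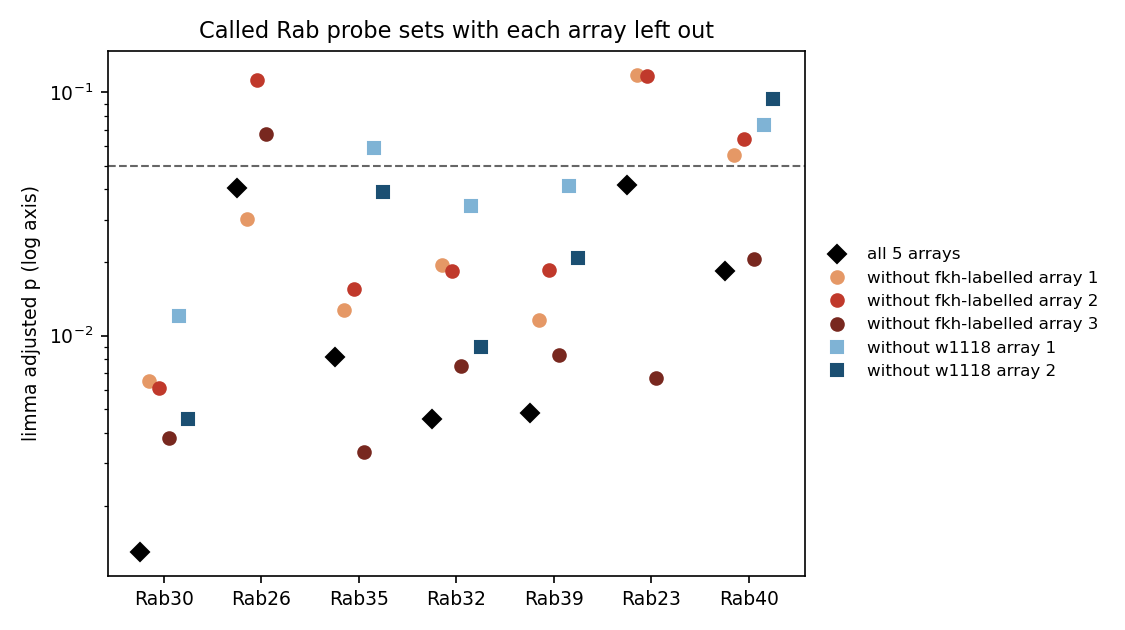
Limma adjusted p, on a log axis, of the 7 called Rab probe sets with all 5 arrays (black diamonds) and with each array left out (circles for fkh-labelled arrays, squares for w1118 arrays). The dashed line is the threshold of 0.05. Rab30, Rab32 and Rab39 stay below it throughout, and Rab40 is above it in 4 of the 5 fits with an array left out.

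Genes that work with Rab proteins were counted next, as 1 probe set per gene, in lists of regulators, effectors, tethers, SNAREs and Arf GTPases. Of 96 genes tested, 25 rose and 14 fell, beside 40.8% of all 8298 genes tested that were called, 21.5% upward and 19.3% downward. Their median log2 fold was 0.11 against -0.010 for all genes tested. With quantile normalization 22 rose (22.9%) and 21 fell (21.9%), beside 20.3% upward and 22.4% downward of all genes. After median centring of each array 25 rose (26%) and 14 fell (14.6%), beside 22.7% and 17.8% of all genes. The split between rises and falls thus differed with the scaling. Without fkh-labelled array 1, 2 or 3, the machinery genes that rose numbered 19, 20 and 29, and those that fell 13, 12 and 14. In the same fits 30%, 30.3% and 43.4% of all probe sets tested were called, so the counts moved with the background.

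Of 31 regulators tested, 6 rose and 4 fell, with a median log2 fold of -0.13. Of all genes tested, 21.5% rose and 19.3% fell. The exchange factor of Rab11, pcs (parcas), rose: it read 4052, 4024 and 3913 in the fkh-labelled arrays, against 1812 and 1662 in the w1118 arrays (log2 fold 1.20 ± 0.14 SE, limma adjusted p = 0.00097). Trs33, a subunit of the TRAPP exchange complex of Rab1 and Rab11, read 1103, 1219.8 and 677 against 179 and 127, with a log2 fold of 2.56 (limma adjusted p = 0.00073). All fkh-labelled arrays of both genes were above both w1118 arrays.

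Rab3GAP1 fell. It encodes the catalytic subunit of a complex that acts on Rab3 and, in mammals, activates Rab18. It read 293, 266 and 219 in the fkh-labelled arrays, against 939.7 and 891 in the w1118 arrays (log2 fold -1.77 ± 0.17 SE, limma adjusted p = 0.00040). Its partner Rab3-GAP read 583, 682 and 390.2 against 866 and 691, and Rab3-GEF 34.5, 24.5 and 34.9 against 38.0 and 44.8. Both had all fkh-labelled arrays below both w1118 arrays without passing the threshold (limma adjusted p = 0.16 and 0.24).

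The Rab5 exchange factor spri (sprint) fell by 2.51 on the log2 scale at its brightest probe set, with 257, 191 and 263 in the fkh-labelled arrays, against 1169 and 1703 in the w1118 arrays (limma adjusted p = 0.00030). Of its 3 other probe sets, 2 fell and 1 did not pass the threshold. Among regulators chosen after their values were seen, Crag, an exchange factor of Rab10 and Rab11, had a log2 fold of -1.18, and wkd (whacked), a GAP of Rab35, -0.64 (limma adjusted p = 0.0036 and 0.029). The call of wkd was lost without fkh-labelled array 2 (0.089), without w1118 array 1 (0.12) and without w1118 array 2 (0.11).

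Of 31 effectors tested, 10 rose and 6 fell, with a median log2 fold of 0.25. The list holds 9 golgins and related coiled-coil proteins of the Golgi, many of which bind Rab proteins, and Grasp65. This subset was set apart after the values were seen, so its counts describe it and support nothing: 6 of 10 rose and 0 fell in limma, with 0 that fell at an unadjusted p under 0.05, beside 21.5% upward and 19.3% downward of all genes. GM130 (a cis-Golgi golgin) read 2364, 2529.6 and 2151 in the fkh-labelled arrays, against 497 and 507 in the w1118 arrays (log2 fold 2.19 ± 0.15 SE, limma adjusted p = 8.6e-05).

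The other golgins that rose were taken after their values were seen. Gmap had a log2 fold of 2.11, GCC185 1.89, Golgin245 1.05, and the stacking protein Grasp65 0.91, all called with each array left out. The fifth, GCC88, at 0.64 (limma adjusted p = 0.021), lost its call without fkh-labelled array 1 (0.074), without w1118 array 1 (0.12) and without w1118 array 2 (0.068).

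Of the other 21 effectors, 4 rose and 6 fell, beside 21.5% upward and 19.3% downward of all genes tested. Rilpl, related to a Rab-binding lysosomal adaptor of mammals, had the largest rise: it read 1472, 1408 and 1987 in the fkh-labelled arrays, against 63.5 and 134 in the w1118 arrays (log2 fold 3.89 ± 0.30 SE, limma adjusted p = 0.00014). The synaptotagmin-like protein btsz (bitesize) rose by 2.44 at its brightest probe set (limma adjusted p = 0.00014), with 3258, 3393 and 4272 against 598 and 717. Another probe set of btsz was tested and did not pass the threshold, and 2 were under the filter.

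BicD fell. This Rab6 effector, which links cargo to dynein, read 437, 325 and 485 in the fkh-labelled arrays, against 2055 and 2662 in the w1118 arrays (log2 fold -2.47 ± 0.22 SE, limma adjusted p = 0.00028). Chosen after their values were seen, the Rab11 effector Rip11 had a log2 fold of -1.85, the actin-oxidising enzyme Mical -1.67, rabphilin (Rph), an effector of Rab3 and Rab27, -1.96, and the lysosomal adaptor Plekhm1 -1.14. These 4 and BicD were called with each array left out. The second Rab11 adaptor on the list, nuf (nuclear fallout), was also chosen after its values were seen. It rose by 0.94 at the brighter of its 2 probe sets (limma adjusted p = 0.0028). At these probe sets the pair of Rab11 adaptors went opposite ways. Mical also has 2 probe sets, and its value is that of the brighter. The other probe set of nuf and that of Mical are not reported here.

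**Figure D4:**
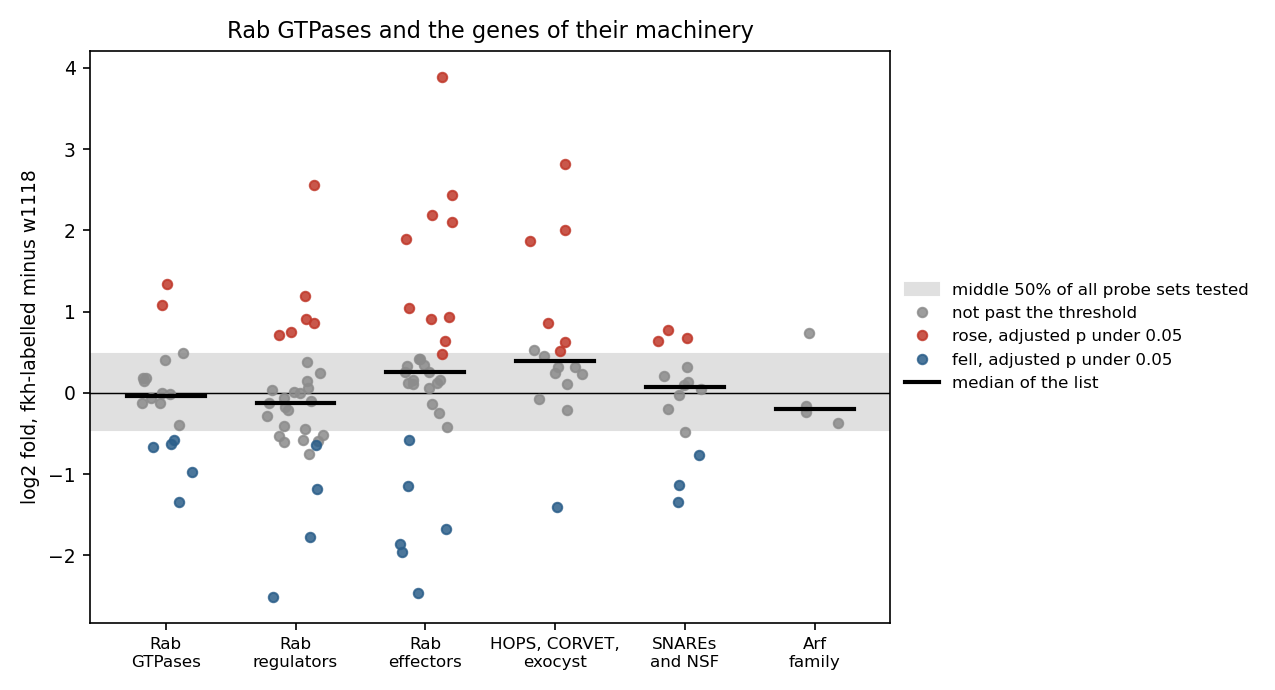
Log2 fold of the fkh-labelled over the w1118 arrays for the Rab probe sets tested and for the tested genes of each list, 1 point each. Black bars are the medians of the lists, from -0.19 (Arf family) to 0.39 (tethers), and the grey band holds the middle 50% of all probe sets tested, from -0.45 to 0.48.

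Of 16 tethering genes tested, 6 rose and 1 fell, with a median log2 fold of 0.39. The exocyst tethers secretory vesicles at the plasma membrane, with a subunit that binds Rab11, and 4 of its 7 subunits tested rose while Sec5 fell, beside 21.5% upward and 19.3% downward of all genes. Exo84 read 1253, 1309 and 1184 in the fkh-labelled arrays, against 161 and 164 in the w1118 arrays (log2 fold 2.82 ± 0.14 SE, limma adjusted p = 2.6e-05). Sec10 rose by 2.01 and Sec5 had a log2 fold of -1.41 (limma adjusted p = 0.00050 and 0.00052), so subunits of one complex moved apart.

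The HOPS and CORVET complexes tether late and early endosomes through Rab7 and Rab5. Of 9 genes listed under them and tested, 2 rose, a share near the 21.5% of all genes. The 9 include Vps16B and Vps33B, named here because they are not core subunits of either complex, and neither passed the threshold. The HOPS subunit lt (light, Vps41) read 886, 904.5 and 876 in the fkh-labelled arrays, against 274 and 197 in the w1118 arrays (log2 fold 1.86 ± 0.18 SE, limma adjusted p = 0.00037).

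SNARE and NSF genes, which carry out fusion, had 3 of 14 that rose and 3 that fell, shares near those of all genes (21.5% and 19.3%). The Golgi SNARE Gos28 read 428, 408 and 289 in the fkh-labelled arrays, against 854 and 804 in the w1118 arrays (log2 fold -1.13, limma adjusted p = 0.0055). The NSF adaptor alphaSnap had a log2 fold of -1.34 (limma adjusted p = 0.016), which missed the threshold without w1118 array 1 (0.0996) and without w1118 array 2 (0.051). Its relative gammaSnap1 rose by 0.78 (limma adjusted p = 0.011) and missed it without w1118 array 2 (0.078). The neuronal SNARE nSyb, itself on the neuronal marker list, had a log2 fold of -0.76 at a dim signal and missed it without w1118 array 1 (0.083).

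Of 4 Arf family genes tested, 0 passed the threshold in limma, and 0 at an unadjusted p under 0.05. Of all genes tested, 40.8% were called. The lowest p values belonged to Arl5, with a log2 fold of -0.37 (limma adjusted p = 0.17), and Arl6, with 0.73 (limma adjusted p = 0.18). After quantile normalization Arl5 passed, at -0.52 (limma adjusted p = 0.031).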

How the data were processed

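The authors deposited linear intensity values, 1 for each probe set, from dChip, where every array had been normalized to a common baseline array (median intensity 134), as the series' design text states. The 183 control probe sets were left out. Genes were named from the platform annotation, and all 23 Rab probe sets kept their symbol in the RefSeq gene table (Release 6 plus ISO1 MT). Values were taken as log2(intensity + 16), and the 11261 probe sets whose mean exceeded the 40th percentile, 5.62, were tested. Over all 18769 non-control probe sets, the median intensity of an array was 44.6 to 49.5. The test was limma 3.58.1 under R 4.3.3, two-sided, through lmFit and eBayes, with Benjamini-Hochberg adjustment over all probe sets tested. With 3 against 2 arrays, an exact permutation test of 1 value cannot give a two-sided p below 0.2, so none was run. A list gene is its brightest probe set with 1 symbol.

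Of 128 machinery genes listed, 97 had such a probe set. Every Rab member was named, and from each list at most 4 called genes of lowest p whose groups do not overlap, or 2 where none was called. Rab3-GAP and Rab3-GEF, whose symbols share the Rab spelling, were given as well. Other names are marked in the text. The members and lists were chosen with earlier results of these data known. The procedure was tested on simulated data. Alternatives to the constant, filter, scaling, variance model, replicate block, probe set per gene and arrays used were computed.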

Additional observations from a re-analysis of the deposited data

How the results depend on the processing

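The 7 called Rab probe sets gave 92 values under the alternatives, of which 72 kept the call, 20 lost it and 0 reversed. The 5 falls became 3 with a constant of 64, 3 with no filter, 3 with the filter at the 60th percentile, 3 with the trended robust variance model, 3 with only fkh-labelled array 3 kept in its group (an alternative added once the data had been seen) and 1 to 4 with an array left out. The rises were 1 with fkh-labelled array 3 alone and 2 to 3 with an array left out. Fits with 1 array left in a group assume that it varies like the other group. Machinery genes that rose numbered 13 with fkh-labelled array 3 alone and 15 to 29 with an array left out. All probe sets called, 4432, became 2734 with fkh-labelled array 3 alone and 2820 to 4890 with an array left out.

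Replicate numbers were shared only as numbers: deviations of same-numbered arrays correlated at 0.077 and -0.11 over the probe sets tested. With the replicate number as a block, 3 Rab probe sets rose, 4 fell, and 4369 of all probe sets were called. Fkh-labelled array 3 has no partner, so the block takes it out of the comparison. Rab2 then passed (limma adjusted p = 0.039), and Rab26 (0.060), wkd (0.061) and GCC88 (0.057) did not.

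Of the uncalled Rab probe sets, 16 of 152 values changed sign, none of them called. With quantile normalization RabX4 was at -0.030 and Rab14 at -0.12, and with median centring Rab10 was at 0.031. With the replicate block Rab19 was at 0.069 and RabX6 at 0.25. With fkh-labelled array 3 alone Rab9 was at -0.12, RabX4 at -0.21 and Rab14 at -0.23. With an array left out Rab14 ranged from -0.13 to 0.12, Rab19 from -0.17 to 0.069, Rab3 from -0.23 to 0.59, RabX6 from -0.38 to 0.25 and Rab10 from -0.11 to 0.088. The causes were not tested.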
